A study of Mus musculus with 4 samples.

Results

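The genes Klra1 to Klra9 encode receptors of the Ly49 family, and they made up 9 of the 32285 genes counted in tumor-infiltrating CD45+ cells. They were taken by their symbols from the table of uncorrected UMIs (unique molecular identifiers, 1 per captured RNA molecule), which holds 11 genes of the Klra family in all. Viable CD45+ cells had been sorted from EO771 tumors, which arise from a C57BL/6 mouse mammary cancer line implanted in the mammary fat pad, and were sequenced with the 10X Chromium 3′ chemistry. The tumors came from 2 Csf1rfl/fl female mice, which carry the floxed alleles of the macrophage growth factor receptor gene without Cre, and 2 Lyve1CreCsf1rfl/fl female mice, in which Cre driven by the Lyve1 gene deletes the floxed Csf1r in cells that express Lyve1. Cells of 1 Csf1rfl/fl and 1 Lyve1CreCsf1rfl/fl tumor, marked with different hashtag antibodies, were pooled on each of 2 Chromium runs, and the tumor is the replicate throughout (n = 4 tumors, 2 per genotype). Levels are UMIs of a gene per 10000 UMIs of all genes over the cells of a type in a tumor, counted per molecule and not divided by gene length. Where 4 values stand in a row, they are those of the Csf1rfl/fl tumors of runs 1 and 2 and then of the Lyve1CreCsf1rfl/fl tumors of runs 1 and 2.

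Ly49 receptors are lectin-like membrane proteins that bind class I MHC molecules and related ligands. In mice they do the work that the structurally unrelated KIR receptors do in humans, and natural killer (NK) cells express them in overlapping subsets, so that neighbouring NK cells carry different combinations. Most members, such as Ly49A (Klra1), Ly49C (Klra3), Ly49E (Klra5), Ly49F (Klra6), Ly49G (Klra7) and Ly49I (Klra9), are inhibitory. They carry an immunoreceptor tyrosine-based inhibitory motif (ITIM) in the cytoplasmic tail, which recruits phosphatases such as SHP-1 (Ptpn6). Ly49D (Klra4) and Ly49H (Klra8) lack it and signal through the adaptor DAP12 (Tyrobp), and Ly49B (Klra2) is known from myeloid cells.

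The division into inhibitory and activating members can be read from the coding sequence itself. The first 60 coding bases of each gene are shown here because they hold the motif in 7 members and not in the other two. The motif was searched from each of the first 60 codons on the coding strand (GENCODE vM21 transcripts, mm10, 5′ to 3′). Capitals mark coding bases 16 to 33, the 6 codons that hold it in 7 members, and the same bases in Klra4 and Klra8.
Klra1: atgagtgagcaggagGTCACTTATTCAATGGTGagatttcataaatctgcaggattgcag
Klra2: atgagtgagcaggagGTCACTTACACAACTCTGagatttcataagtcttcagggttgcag
Klra3: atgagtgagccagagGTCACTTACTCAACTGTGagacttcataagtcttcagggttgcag
Klra4: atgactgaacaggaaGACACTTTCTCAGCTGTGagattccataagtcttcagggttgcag
Klra5: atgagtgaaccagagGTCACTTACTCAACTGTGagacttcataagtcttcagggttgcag
Klra6: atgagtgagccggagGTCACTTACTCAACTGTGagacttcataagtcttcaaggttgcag
Klra7: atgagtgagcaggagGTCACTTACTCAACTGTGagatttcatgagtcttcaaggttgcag
Klra8: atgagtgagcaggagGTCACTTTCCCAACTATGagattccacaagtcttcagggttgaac
Klra9: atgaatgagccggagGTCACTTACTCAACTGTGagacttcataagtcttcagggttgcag
The third of these codons encodes the tyrosine of the motif in 7 members. It is TAT in Klra1, TAC in the other 6 of these and TTC in Klra4 and Klra8. Relative to Klra1 and counted from the first coding base, both carry A23T, which sets them apart from the 7, and T24C, a change that the 6 members with TAC have too. All 9 genes lie on the minus strand of chromosome 6 (GRCm38). Klra5, Klra6, Klra4, Klra8, Klra9, Klra7, Klra3 and Klra1 follow each other in this order within 487.9 kb, and Klra2 lies a further 832.3 kb beyond Klra1. Klra7 spans 130218605 to 130233322, and Klra4 spans 130043731 to 130067271.

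The members resemble each other enough that some reads cannot be placed with certainty. The coding sequences of Klra3 and Klra9 were 95.9% identical, whereas those of Klra1 and Klra2 were 75.1% identical. In the last 400 bases of the annotated transcripts, where 3′ reads fall, no stretch of 90 bases was shared with another gene by Klra1, Klra2, Klra4, Klra5, Klra6 or Klra8. Shared stretches made up 0.965% to 10.3% of those of Klra3, 10.6% to 13.5% of those of Klra7 and 6.11% to 17.7% of those of Klra9. The values of these 3 genes are therefore less certain than those of the other six.

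The study kept 28429 of 53361 barcodes, with median depths of 3721 to 4657 UMIs per cell in the 4 tumors, and 60 barcode sequences occurred in both runs. Cell types were set by gates on lineage marker UMIs, with no member of the family among the markers. The gates gave 1356 NK cells, 1560 CD8 T cells, 1801 T cells with NK markers, 110 γδ T cells, 612 conventional CD4 T cells, 1433 regulatory T cells and 1321 other T cells, and 26.2% of the kept cells stayed ungated. Ungated cells held from 27.3% (Klra1) to 36.8% (Klra2) of the UMIs of a member. Markers that no gate used were highest in the NK gate, where the summed level of Nkg7, Gzma, Prf1, Eomes, Txk and Klrd1 was 116.5 to 158.6 UMIs per 10000, against 21.1 to 35.2 in CD8 T cells and 0.477 to 0.643 in neutrophils. Csf1r was at 2.35, 2.51, 1.63 and 1.68 UMIs per 10000 in mononuclear phagocytes, whose gate uses Csf1r. Lyve1 gave 1 UMI in these cells, and a 3′ UMI need not come from the deleted part, so this does not check the deletion.

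By the mean of 4 tumors, NK cells held the highest levels of 6 members, Klra1, Klra3, Klra4, Klra7, Klra8 and Klra9, and 3 genes made up most of the signal. Klra7 stood at 5.07, 3.85, 4.33 and 4.28 UMIs per 10000 (4.38 ± 0.51, SD, n = 4). Klra4 stood at 3.69, 5.35, 3.23 and 3.71 (3.99 ± 0.93). Klra8 stood at 2.67, 4.55, 2.57 and 3.57 (3.34 ± 0.93). The ranges of these 3 genes overlapped, so that their order is not set by these tumors, and the Csf1rfl/fl tumor of run 2 was the highest for both activating members and the lowest for Klra7.

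The remaining members were lower in NK cells. Klra9 was at 1.39, 1.79, 1.33 and 1.67 UMIs per 10000, Klra3 at 1.58, 1.09, 0.982 and 1.40, and Klra1 at 1.47, 0.971, 1.06 and 0.953, with ranges that overlapped each other and lay below those of Klra4, Klra7 and Klra8. Klra5, at 0.0941 to 0.210, and Klra6, at 0.0565 to 0.0989, were lower again in every tumor. Klra2 was at 0.0145 to 0.0765, beside 0.0593 to 0.162 in conventional CD4 T cells, with summed myeloid check markers of 26.3 to 46.3 in NK cells. In neutrophils, taken as the background from free RNA for the other 8 members, Klra4 was at 0.0069 to 0.0132 and Klra7 at 0.0072 to 0.0185. The neutrophil gate left out cells with any UMI of the T cell or NK markers, which can lower this background.

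**Figure D1:**
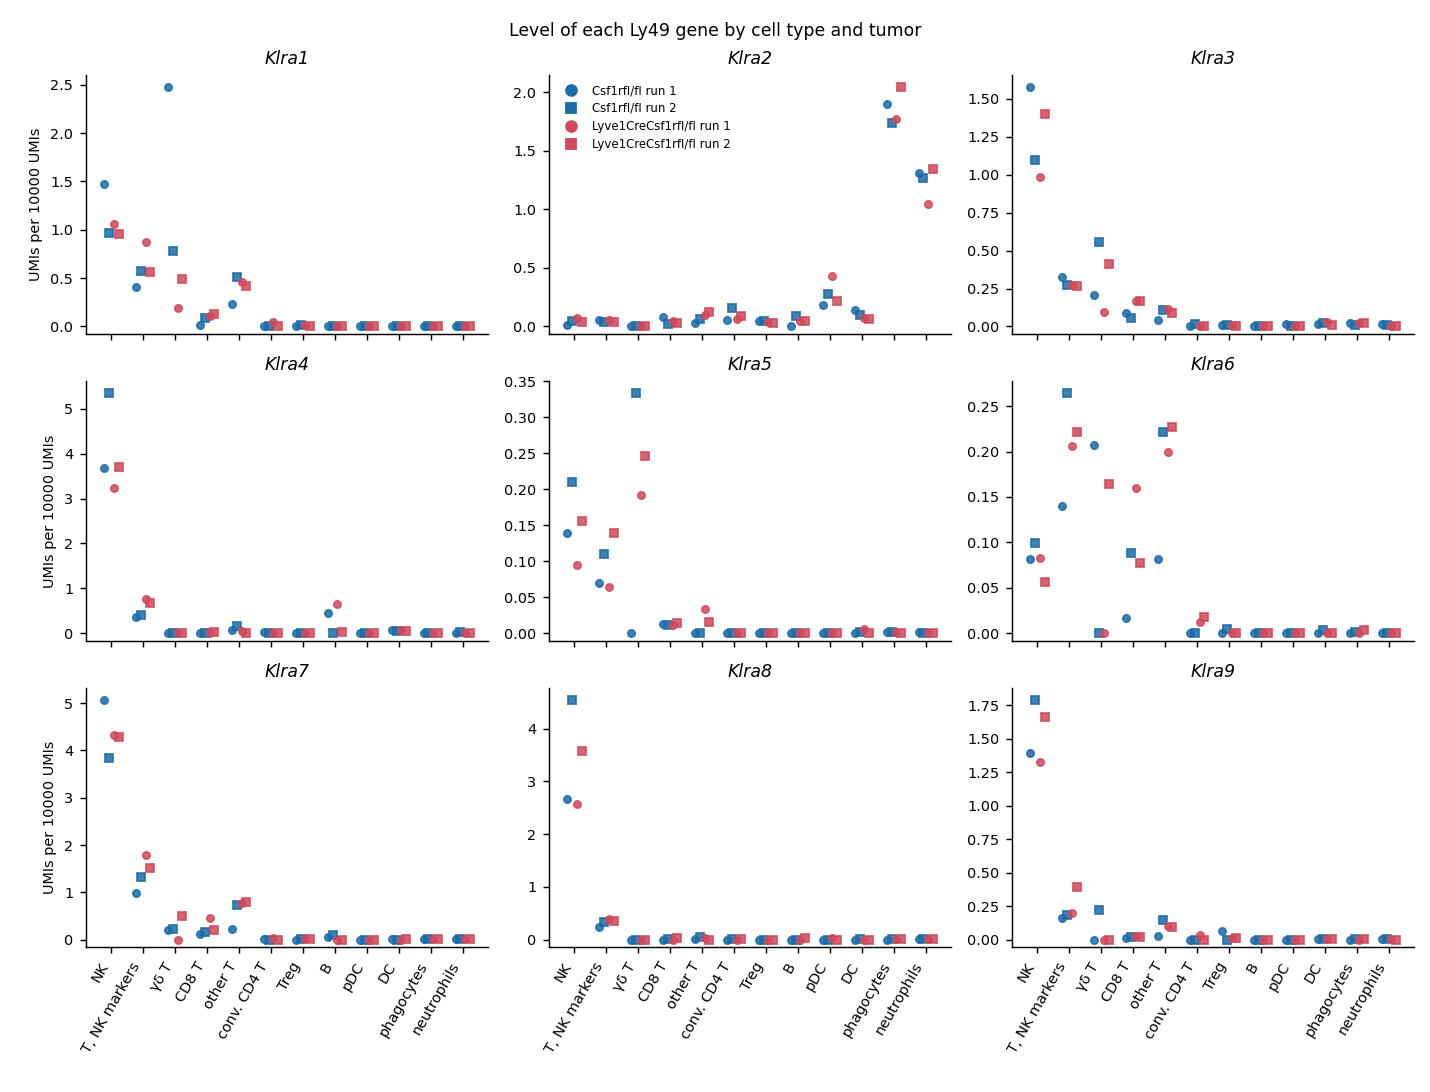
Level of each Ly49 gene (y axis, UMIs per 10000 UMIs, a separate scale for each gene) in 12 gated cell types (x axis), with 1 point per tumor, colored by genotype and shaped by run. Klra4, Klra8 and Klra9 are highest in NK cells in all 4 tumors, Klra6 is higher in T cells with NK markers than in NK cells, and Klra2 is high in mononuclear phagocytes and neutrophils.

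Of all UMIs of the 8 members other than Klra2 in NK cells, Klra7 made up 27.9% ± 4.8 (SD, n = 4), Klra4 25.0% ± 3.3 and Klra8 20.8% ± 3.9. Klra9, Klra3 and Klra1 made up 9.73%, 7.99% and 7.09%, and Klra5 and Klra6 0.928% and 0.505%. The activating members Klra4 and Klra8 together stood at 0.652, 1.24, 0.736 and 0.856 times the 6 inhibitory members. NK cells with a UMI of the gene had a median of 4 UMIs of Klra4, 3 each of Klra1, Klra3, Klra5, Klra7 and Klra8, 2 of Klra9 and 1 each of Klra2 and Klra6, with up to 28 for Klra7.

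A UMI of at least 1 of the 8 members was found in 83.1%, 83.3%, 74.5% and 77.8% of NK cells. After thinning each cell to 2000 UMIs, which left out 54, 45, 54 and 20 shallower cells, the shares were 75.2%, 78.1%, 67.8% and 73.4%. In neutrophils the thinned shares were 0.599%, 0.940%, 0.452% and 0 (0 of 242 cells, which allows up to 1.24%), with median depths of 2193 UMIs there and 3945.5 in NK cells. By gene, thinned shares of NK cells averaged 41.6% for Klra7, 33.5% for Klra4, 32.0% for Klra8, 19.2% for Klra9, 14.1% for Klra3 and 12.4% for Klra1. A thinned NK cell held UMIs of 1.55, 1.76, 1.42 and 1.51 members on average, and no more than 6. A gene without a UMI at this depth may still be expressed, so these shares are lower limits on the share of expressing cells, apart from the background given.

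Detection of pairs of members in the same NK cell was set against the product of their shares. Klra4 and Klra8, the pair of DAP12 receptors, were found together in 202 thinned cells, 1.62 times as often as this product (range over tumors 1.28 to 1.82). Among cells with Klra8, 53.3% had Klra4, against 24.6% of cells without Klra8. The ratio was 1.70 for Klra1 with Klra4 (83 cells, 1.36 to 2.06), 1.50 for Klra8 with Klra9 (109 cells, 1.31 to 1.76) and 1.30 for Klra4 with Klra7 (216 cells, 1.19 to 1.38), above 1 in every tumor. So were Klra1 with Klra8 (1.32), Klra1 with Klra7 (1.25), Klra7 with Klra8 (1.25) and Klra3 with Klra4 (1.24). Klra3 with Klra7 (1.11), Klra3 with Klra8 (1.10) and Klra4 with Klra9 (1.09) had tumors on both sides of 1. Klra7 with Klra9, at 1.04, and Klra3 with Klra9, at 1.05, were near the product, and Klra1 with Klra9 was at 0.814 in 23 cells (0.636 to 1.12, on both sides of 1). These ratios are a description without a test, since the cells of a tumor are not replicates. Klra3, Klra7 and Klra9 share sequence with other genes of the family, as given above, whereas Klra1, Klra4 and Klra8 do not in the windows searched.

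**Figure D2:**
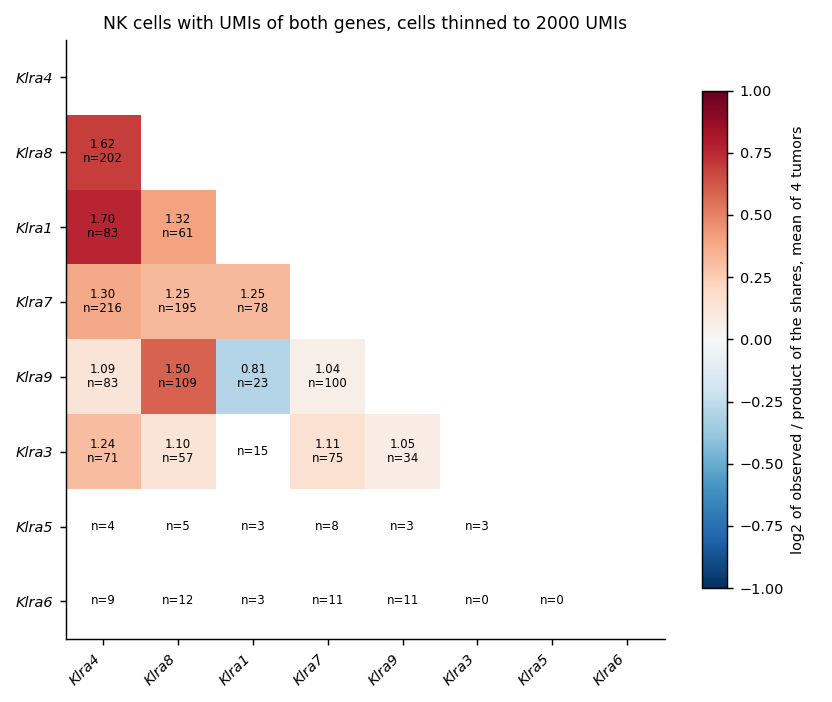
Each square gives, for a pair of Ly49 genes, the share of NK cells with UMIs of both divided by the product of the single shares, as the mean of 4 tumors in cells thinned to 2000 UMIs, with n the cells that held both (no ratio under 20 cells). The color gives log2 of the ratio, which is highest for Klra1 with Klra4 (1.70) and Klra4 with Klra8 (1.62).

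NK cells were compared with CD8 T cells on UMIs summed per tumor and cell type, with the tumor as a block, by edgeR's quasi-likelihood test. T cells with at least 2 UMIs of the NK markers Ncr1, Klrb1c and Klre1, of which 1368 had a Cd8 UMI, formed a class of their own. CD8 T cells are thus what the gate left, and the NK gate uses the same markers. The gates can therefore set part of the differences of genes found together with these markers, Ly49 genes among them. All 9 members passed the filter on low counts in this comparison, but Klra4, Klra5, Klra8 and Klra9 had 7, 10, 7 and 16 UMIs in CD8 T cells and were too low there to be tested by genotype. They passed through NK cells, where they are high, so that the number of members called is no support for a pattern. Of 9756 genes tested, 18.9% passed an adjusted p of 0.05, 10.3% being higher in NK cells and 8.56% lower, and 7 of the 9 members were higher. Klra4 was at 0.0082, 0, 0.0114 and 0.0136 UMIs per 10000 in CD8 T cells, within or near the neutrophil background, and its difference was 8.79 ± 0.23 on the log2 scale (SE, adjusted p = 9.0e-11). Klra8 was at 0 to 0.0273 in CD8 T cells (difference 8.54 ± 0.29, adjusted p = 5.8e-10), and Klra9 at 0.0123 to 0.0285 (6.29 ± 0.19, adjusted p = 2.6e-10). With so few UMIs in CD8 T cells the sizes of these 3 fitted differences are uncertain, and no order is drawn from them.

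Klra1, Klra3, Klra6 and Klra7 had 65 to 186 UMIs each in CD8 T cells. Klra7 was at 0.127, 0.160, 0.461 and 0.205 UMIs per 10000 there, against 0.0072 to 0.0185 in neutrophils, and was 4.33 ± 0.24 (log2) higher in NK cells. Klra1 was higher by 3.80 ± 0.33 and Klra3 by 3.46 ± 0.23, both with adjusted p of at most 4.0e-06. Klra5 was at 0.0111 to 0.0136 in CD8 T cells from 10 UMIs, and its fitted difference of 3.58 ± 0.36 (adjusted p = 1.3e-05) is as uncertain in size as those of Klra4, Klra8 and Klra9. Klra6 was the exception among lymphocyte members: it was at 0.0163, 0.0885, 0.159 and 0.0773 in CD8 T cells, a range that enclosed that of NK cells, and its difference was 0.09 ± 0.41 (adjusted p = 0.91). Klra2 did not pass either (-0.13 ± 0.52, adjusted p = 0.91).

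Of the genes that act with these receptors, Tyrobp, the adaptor of Klra4 and Klra8, was 3.63 ± 0.13 (log2) higher in NK cells, and Fcer1g, an adaptor of other activating receptors, 3.19 ± 0.17. Hcst, which encodes the adaptor DAP10, did not pass (0.08 ± 0.12, adjusted p = 0.71). The kinase Syk was higher by 2.58 ± 0.25, and the T cell kinase Zap70 fell by 0.71 on the same scale (SE 0.12). Of 3 phosphatases, Inpp5d (SHIP-1) was higher by 0.87 ± 0.11, Ptpn6 lower (-0.36 ± 0.10) and Ptpn11 (SHP-2) did not pass. Of 10 other receptors encoded in the NK gene complex, 9 were higher in NK cells, among them Klrb1f by 5.68 ± 0.18 and Klrb1b by 4.52 ± 0.19. Of these 9, Klrb1a, Klri1 and Klrg1 were too low in CD8 T cells to be tested by genotype there and passed the filter through NK cells, and the inhibitory CD94 partner Klrc1 did not pass (-0.07 ± 0.12). Klrb1c and Klre1, which the gates use, belong to this complex too, so the count is a description. All 3 class I genes, H2-K1, H2-D1 and B2m, were higher by 0.26 to 0.48. Of 10 transcription factors 6 were higher, with Eomes at 1.96 ± 0.12 and Runx1 at 1.53 ± 0.13, whereas Tcf7, which encodes TCF-1, did not pass (0.11 ± 0.19). The median difference over all 9756 genes was -0.02.

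**Figure D3:**
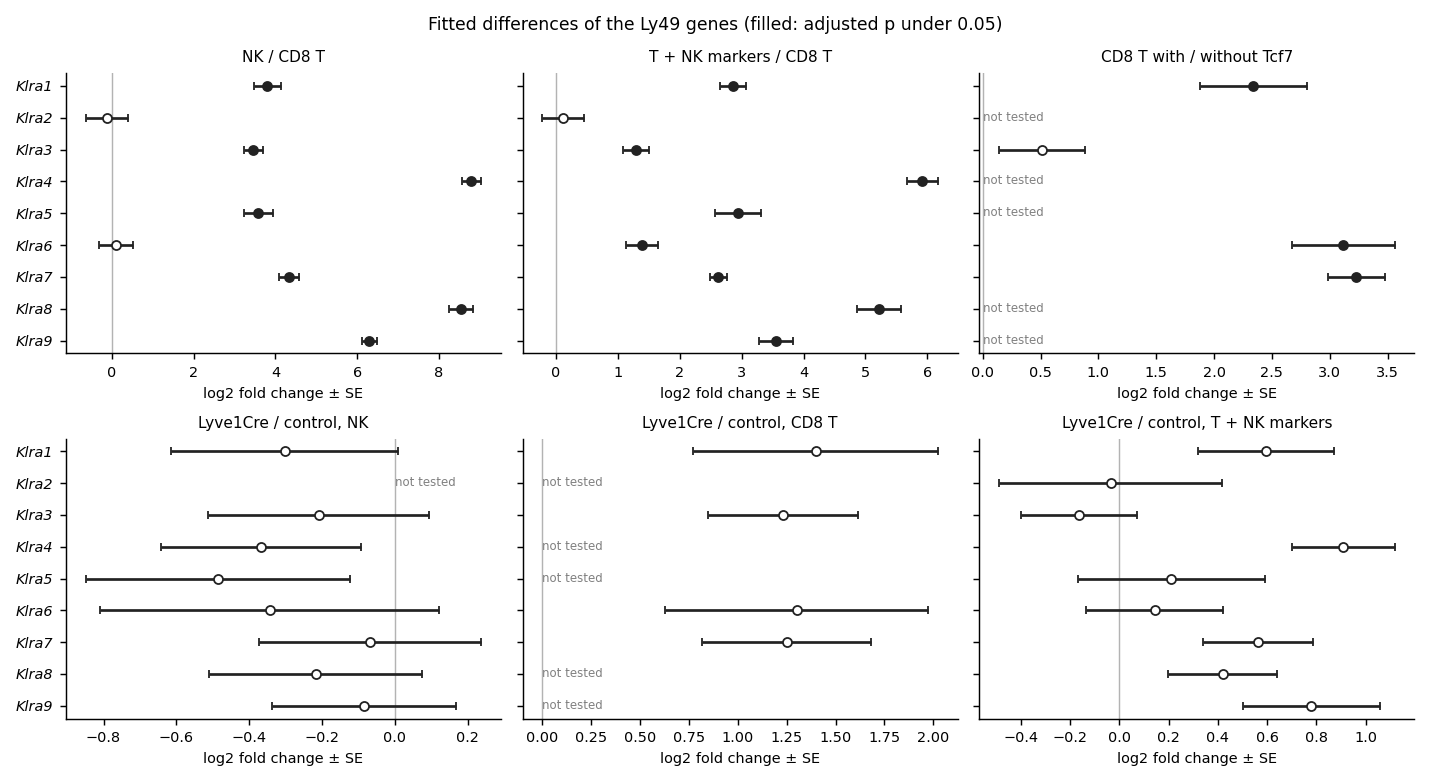
Fitted log2 fold change ± SE (x axis) of each Ly49 gene in 6 comparisons, with filled points for adjusted p under 0.05 (edgeR) and empty points otherwise. Points for 7 genes are filled for NK cells against CD8 T cells and for 8 genes for T cells with NK markers, those of Klra4, Klra5, Klra8 and Klra9 resting on 16 UMIs or fewer in CD8 T cells. In the Tcf7 panel, Klra1 and Klra6 rest on few UMIs in cells without Tcf7. No point is filled in the 3 panels of genotype, whose fits do not use the run as a block. With that block Klra4 passed in T cells with NK markers (edgeR, adjusted p = 0.011).

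T cells with NK markers were T cells with at least 2 UMIs of Ncr1, Klrb1c and Klre1 together. Of the 1801 cells, 1330 met this rule by Klre1 alone and 471 had a UMI of Ncr1 or Klrb1c. Klra4 was at 0.0083, 0.0191, 0.0186 and 0.0312 UMIs per 10000 in the former and at 1.74, 1.71, 2.16 and 1.88 in the latter, so that its level over the class rests on the smaller group. Their summed level of Cd247, Trbc2, Cd5, Cd6 and Lck was 14.2 to 16.6 UMIs per 10000, as in CD8 T cells (14.9 to 16.5), and the NK check markers were at 36.3 to 50.1, below NK cells. Klra7 was at 0.977, 1.31, 1.79 and 1.52 UMIs per 10000 in them, Klra1 at 0.406, 0.576, 0.869 and 0.563, and Klra4 at 0.360, 0.411, 0.764 and 0.662. These values lay below those of NK cells for each gene without overlap. Klra6 alone was higher in them than in NK cells in every tumor, at 0.141, 0.264, 0.206 and 0.222 against 0.0819, 0.0989, 0.0823 and 0.0565, a difference that was not tested. Their median depth was 5564 UMIs, above NK cells (3945.5) and CD8 T cells (4062), and the part of undetected doublets of NK and T cells was not tested.

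Against CD8 T cells, 3.04% of 10174 genes passed, 2.22% being higher and 0.816% lower, and 8 of the 9 members were higher, again with Klra4, Klra5, Klra8 and Klra9 tested through the group where they are high. Klra4 differed by 5.92 ± 0.25 (log2, adjusted p = 2.9e-11), and the values of the others were Klra8 (5.22 ± 0.36), Klra9 (3.56 ± 0.27), Klra5 (2.94 ± 0.37), Klra1 (2.87 ± 0.21) and Klra7 (2.62 ± 0.14). Klra6 (1.40 ± 0.26, adjusted p = 0.0041) and Klra3 (1.30 ± 0.22, adjusted p = 0.0016) also passed, but without the tumor block their adjusted p were 0.39 and 0.14, and 20 genes passed in all. Klra2 did not pass (0.12 ± 0.34). Of the other lists, 9 of the 9 receptors of the NK gene complex that were tested were higher, Klrb1a and Klrg1 among them with counts too low in CD8 T cells to be tested by genotype there, as were 2 of 3 adaptors and 1 of 10 transcription factors. Klrb1c and Klre1 are themselves receptors of this complex, and CD8 T cells are what the gate left after cells with 2 or more such UMIs were taken out, so that the gate can set the level of genes found together with them and the count is a description.

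This class was not uniform. Split after its values were seen, the 433 cells without a UMI of Cd8a or Cd8b1 held Klra7 at 4.70, 4.91, 4.65 and 4.49 UMIs per 10000, at about the level of NK cells, and Klra1 at 2.40, 2.23, 2.17 and 1.51, above NK cells in every tumor. Klra6 was at 0.704, 0.882, 0.424 and 0.443 in them, above NK cells in every tumor. Their summed T check markers were at 8.98 to 10.8 UMIs per 10000, between NK cells (4.25 to 4.91) and CD8 T cells. The 1368 cells with such a UMI held Klra7 at 0.370 to 0.472, Klra1 at 0.0891 to 0.271 and Klra6 at 0.0509 to 0.137. Over the whole class, Klra7 made up 37.6% ± 1.2 of the UMIs of the 8 members, Klra1 16.1%, Klra4 14.5%, Klra8 9.07% and Klra6 5.69%, so the activating members had a smaller share than in NK cells and did so in every tumor.

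**Figure D4:**
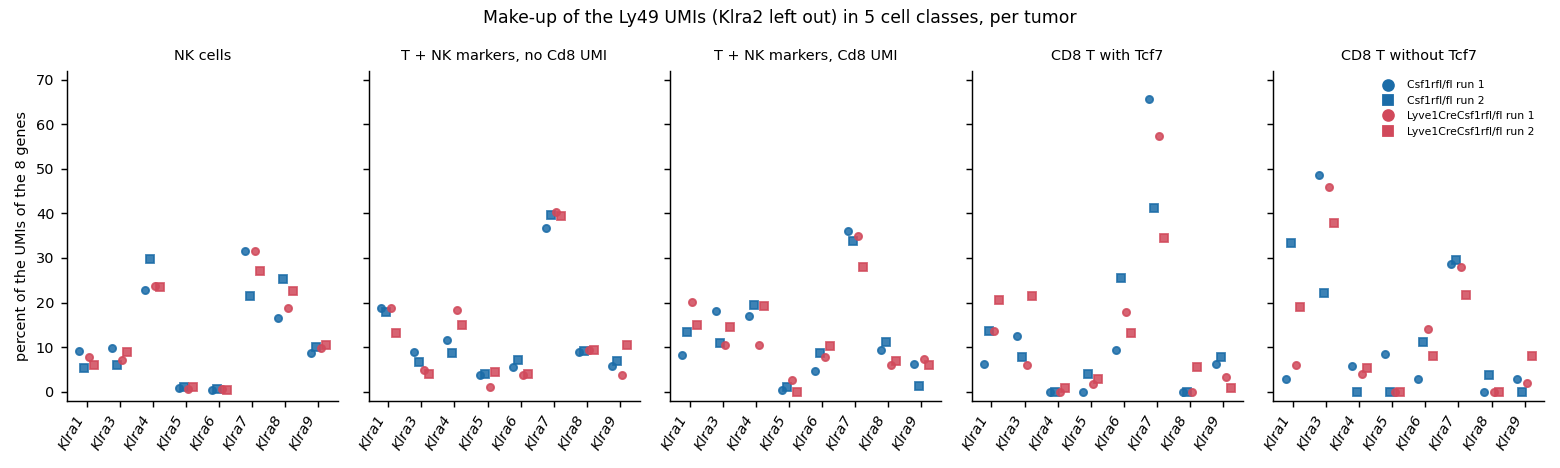
Percent of the UMIs of the 8 Ly49 genes other than Klra2 (y axis) that each gene made up, in 5 classes of cells, with 1 point per tumor, colored by genotype and shaped by run. Klra4 and Klra8 each hold at least 16.6% in NK cells in every tumor and at most 5.71% in CD8 T cells with or without Tcf7.

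γδ T cells, 110 cells at a median of 2692 UMIs, showed another pattern. Klra1 was at 2.48, 0.779, 0.192 and 0.492 UMIs per 10000, from 27 UMIs in all, and its highest tumor lay above every NK value and its lowest below. Klra4 and Klra8 had no UMI in these cells, so that their NK levels were at least 48.3-fold and 39.8-fold higher, with 3 counts over the group as the floor. Any γδ T cells with at least 2 UMIs of Ncr1, Klrb1c and Klre1 fell in the class of T cells with NK markers. The gates can therefore set part of this absence. Of 8709 genes, 8.58% differed from CD8 T cells, 2.64% being higher and 5.94% lower. Klra1 was higher (3.11 ± 0.50, adjusted p = 6.3e-08). Without the Csf1rfl/fl tumor of run 1, whose 13 γδ T cells held 12 of the 27 UMIs, its difference was 1.99 (adjusted p = 0.048), and without each of the others it was 3.15 to 3.61. Klra5 had 8 UMIs from 5 γδ T cells and 10 UMIs in CD8 T cells, and could be tested in only 1 of the 4 fits that leave out a tumor, so that its value (3.84 ± 1.08, adjusted p = 0.0078) is given as a description. Klra3 (1.29 ± 0.61, adjusted p = 0.21), Klra6 (-0.24 ± 1.02) and Klra7 (-0.10 ± 0.58) did not pass.

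Other T cells, which met no lineage rule, held Klra7 at 0.228, 0.738, 0.785 and 0.797 and Klra1 at 0.236, 0.516, 0.459 and 0.414 UMIs per 10000, with the Csf1rfl/fl tumor of run 1 the lowest for both. CD4 T cells outside the class of T cells with NK markers were near the neutrophil background. Cells with at least 2 UMIs of Ncr1, Klrb1c and Klre1 were not in these CD4 classes, so the gates can set part of this. The summed level of the 8 members was 0.0197 to 0.0726 UMIs per 10000 in regulatory T cells and 0.0296 to 0.127 in conventional CD4 T cells, against 0.0217 to 0.0608 in neutrophils. No member had enough counts to be tested between regulatory and conventional CD4 T cells, where 5.98% of 8746 genes passed, 2.33% being higher in regulatory T cells and 3.65% lower. Klra8 had no UMI in the regulatory T cells of any tumor, which allows shares of up to 0.637% to 1.25% of cells with a Klra8 UMI by tumor.

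CD8 T cells with a Tcf7 UMI were compared with those without, since TCF-1 is known as a regulator of Ly49A and marks less differentiated CD8 T cells. Klra7 was at 0.542, 0.503, 1.22 and 0.382 UMIs per 10000 in the 379 cells with Tcf7 and at 0.0485, 0.0576, 0.116 and 0.0650 in the 1181 without. The groups did not overlap, and the fitted difference was 3.23 ± 0.24 (log2, adjusted p = 5.4e-07). Klra6 was at 0.0775, 0.311, 0.382 and 0.144 with Tcf7 and at 0.0049, 0.0216, 0.0580 and 0.0244 without (3.12 ± 0.44, adjusted p = 0.00031). Klra1 was at 0.0516, 0.168, 0.291 and 0.227 with Tcf7 and at 0.0049 to 0.0648 without, with an overlap between tumors (2.34 ± 0.46, adjusted p = 0.0041). Of the 8852 genes tested 7.38% passed, 4.15% being higher and 3.23% lower, against 3 of the 4 members tested. Klra1 and Klra6 had few UMIs in the cells without Tcf7 and can have passed the filter on low counts through the cells with Tcf7, where they are high. The number of members called is therefore no support for a pattern, and the sizes of the fitted differences of Klra1 and Klra6 are uncertain. Klra3, at 0.0957 to 0.237 with Tcf7 and 0.0432 to 0.190 without, did not pass (0.51 ± 0.37, adjusted p = 0.51).

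Of 6 receptors of the NK gene complex other than Ly49 that were tested in this split, 2 did not pass and 4 were lower in cells with Tcf7: Klri2 fell by 1.58, Klrc1 by 0.95, Klrd1, the CD94 chain, by 0.74 and Klrk1, which encodes NKG2D, by 0.61 on the log2 scale. Of 10 transcription factors, Eomes was higher (0.96 ± 0.17), Id2 (-1.13 ± 0.11), Tbx21 (-0.74 ± 0.19) and Runx3 (-0.38 ± 0.10) were lower, and Tcf7 itself was set by the gate. Median depth was 4473 UMIs with Tcf7 and 3921 without, and a part of depth in the split was not tested.

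Because Klra7 differed with Tcf7 in this split, the promoters of the members were searched for the core of the TCF site on both strands (CTTTGA or CTTTGT). The search covered the 250 bases before each RefSeq start (GRCm38.p6). The genes other than Klra1 share a stretch before their starts, which is shown 5′ to 3′ on the minus strand of chromosome 6, with a TCF core in capitals where it is present.
Klra6: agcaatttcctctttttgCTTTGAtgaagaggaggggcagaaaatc
Klra7: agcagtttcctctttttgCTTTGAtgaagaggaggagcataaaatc
Klra9: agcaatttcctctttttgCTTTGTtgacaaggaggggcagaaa
Klra5: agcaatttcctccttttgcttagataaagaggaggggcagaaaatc
Klra2: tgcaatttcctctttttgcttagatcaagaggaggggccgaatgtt
Klra3: agcaatttcctctttttgctttgg
Klra4: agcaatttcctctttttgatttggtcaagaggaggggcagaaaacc
Klra8: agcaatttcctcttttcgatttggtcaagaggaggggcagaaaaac
The Klra7 stretch lies at chr6:130233371-130233416 and that of Klra6 at chr6:130027033-130027078. Within the 6 bases of the Klra7 core, counted from the first base shown and relative to Klra7, Klra4 and Klra8 carry C19A and A24G, Klra2 and Klra5 carry T22A, Klra9 carries A24T, and Klra3, whose window ends after 24 bases, carries A24G. The window of Klra1 holds neither this stretch nor a TCF core. It aligned with the window of any other member over at most 52 bases, against at least 150 bases between the others. The RefSeq start of Klra1 may thus not match theirs, and Klra1 sequence outside this window was not searched. Klra7 has a further RefSeq start, whose window holds a TCF core without the stretch. The core occurs in 27.6% of 32851 promoter windows of this length, so that its presence in Klra6, Klra7 and Klra9 is a description of these letters. The ETS core GAGGAA, which on the other strand overlaps the start of the stretch as ttcctc, was present in a window of every member but Klra1 and in 23.3% of all windows. The RUNX letters TGTGGT (14.0% of windows) were present in Klra1 alone, and the T-box core TCACAC (12.3%) in none of the 9.

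Genotype was compared within each lymphocyte class to ask whether Ly49 levels differ in tumors of mice with Lyve1Cre. Each run pooled 1 tumor of each genotype, and the main fits did not use the run as a block. In NK cells 0 of 8923 genes passed (0%), 82 had an unadjusted p under 0.05, and DESeq2 called 0. The 8 members tested had differences from -0.49 to -0.07 (log2, Lyve1CreCsf1rfl/fl against Csf1rfl/fl), each with an adjusted p of 1.0 and an SE between 0.25 and 0.47. Klra4 was at 3.69 and 5.35 in Csf1rfl/fl and at 3.23 and 3.71 in Lyve1CreCsf1rfl/fl tumors, with overlapping groups (-0.37 ± 0.28). In both runs Klra1, Klra4, Klra5, Klra8 and Klra9 were lower in the Lyve1CreCsf1rfl/fl tumor than in the other, and Klra3, Klra6 and Klra7 were not. With the run as a replicate block 0 of 8923 genes passed. The share of thinned NK cells with any of the 8 members was 76.7% and 70.6% on average, and lower in the Lyve1CreCsf1rfl/fl tumor of each run. The exact permutation test, which does not pair tumors by run, gave p = 0.33, the smallest that 2 against 2 tumors can give (adjusted p = 0.95 over 10 shares). On simulated counts with well-counted genes changed, this comparison called 33% of genes changed 2-fold and 100% of those changed 4-fold. Differences of 2-fold or less would thus often be missed. In the simulation 100 genes were changed at each fold at once, which makes the adjusted threshold easier to pass. For a member changed alone, larger differences could be missed too.

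In CD8 T cells all 4 members tested were higher in Lyve1CreCsf1rfl/fl tumors by their fitted values, without passing. Klra3 was at 0.0858 and 0.0553 in Csf1rfl/fl and at 0.171 and 0.168 in Lyve1CreCsf1rfl/fl tumors, without overlap (1.23 ± 0.39, unadjusted p = 0.011, adjusted p = 1.0 by edgeR). Klra7 (1.25 ± 0.43) and Klra1 (1.40 ± 0.63) did not overlap either, and Klra6 (1.30 ± 0.67) did. The fitted values moved when a tumor was left out. Klra1 passed at 3.14 (adjusted p = 0.019) without the Csf1rfl/fl tumor of run 2 and was 0.58 without that of run 1, and for Klra6 these values were 2.72 and 0.54, neither passing. Without the Lyve1CreCsf1rfl/fl tumor of run 1, Klra6 was 0.58 and Klra7 0.43, and Klra7 was at most 1.82 and Klra3 0.88 to 1.74 over the 4 fits. Of 9457 genes 0 passed (0%), and 40 passed with the run as a replicate block, none of them a member. The cells with Tcf7, which carry 146 of the 186 Klra7 UMIs and 38 of the 98 Klra3 UMIs, numbered 60, 67, 94 and 158 of 506, 290, 384 and 380 CD8 T cells, and the part of this shift in the difference was not tested. The authors had removed lymphocyte clusters specific to the Lyve1CreCsf1rfl/fl tumor of run 2, and the part of this removal in the kept T cells was not tested either.

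In T cells with NK markers 2 of 9812 genes passed (0.0204%), and no member was among them. Klra4, at 0.360 and 0.411 in Csf1rfl/fl against 0.764 and 0.662 in Lyve1CreCsf1rfl/fl tumors, had a difference of 0.91 ± 0.21 (edgeR, adjusted p = 0.83), without overlap, as did Klra7 (0.56 ± 0.22), Klra8 (0.42 ± 0.22) and Klra9 (0.78 ± 0.28), which did not pass. Klra3 did not overlap either and was lower in Lyve1CreCsf1rfl/fl tumors (0.323 and 0.275 against 0.271 and 0.267, -0.16 ± 0.24, not passing). With the run as a replicate block the adjusted p of Klra4 was 0.011, and 38 genes passed. The cells with Ncr1 or Klrb1c made up 18.3%, 26.0%, 31.5% and 36.3% of the class by tumor. The cells without a Cd8 UMI, which hold most Klra4 UMIs, made up 13.9%, 26.0%, 31.5% and 33.8%. Within these cells Klra4 was at 1.49, 1.07, 2.12 and 1.71 UMIs per 10000, and within those with a Cd8 UMI at 0.181, 0.251, 0.142 and 0.256, where the genotypes overlapped. The part of this make-up in the difference was not tested.

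**Figure D5:**
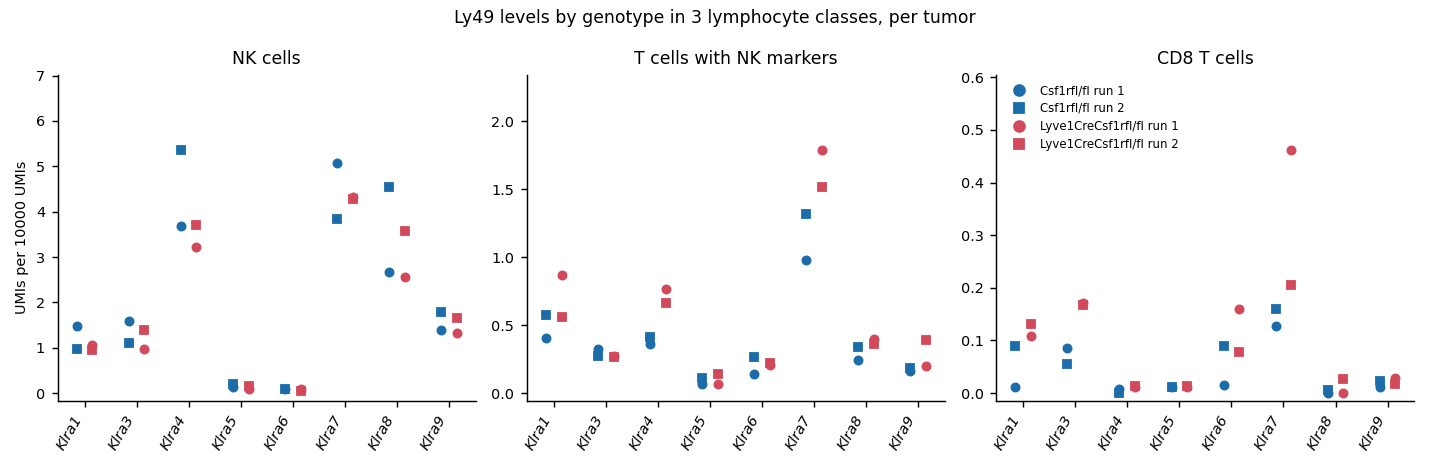
Level of the 8 Ly49 genes other than Klra2 (y axis, UMIs per 10000 UMIs, a separate scale per panel) in NK cells, T cells with NK markers and CD8 T cells, with 1 point per tumor, colored by genotype and shaped by run. The genotypes overlap for all 8 genes in NK cells, and do not overlap for Klra4, Klra7, Klra8 and Klra9 (higher in Lyve1CreCsf1rfl/fl) and Klra3 (lower) in T cells with NK markers or for Klra1, Klra3 and Klra7 (all higher) in CD8 T cells. Klra4 in CD8 T cells, at 0 to 0.0136 from 7 UMIs, is too low to be read.

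The difference between the genotype effects in NK and CD8 T cells was tested as an interaction. No gene of 9756 passed (0%), and all 9 members had an adjusted p of 1.0. The member with the lowest unadjusted p was Klra3, whose effect was lower in NK than in CD8 T cells by 1.46 on the log2 scale (SE 0.33, unadjusted p = 0.0012), and leaving out a tumor moved it between -1.73 and -1.20. Klra7 had a difference of -1.25 ± 0.39 (edgeR, unadjusted p = 0.0086), which moved between -1.75 and -0.60 without a tumor. Klra1 and Klra6 had differences of -1.72 ± 0.67 and -1.75 ± 0.73, which moved between -3.81 and -0.42 and between -3.05 and -0.93 without a tumor. The values of Klra4, Klra5, Klra8 and Klra9 rest on 7 to 16 UMIs in CD8 T cells and are not read: without a tumor, Klra4 lay between -4.75 and -0.69 and Klra8 between -4.42 and 1.82. On simulated counts this test called 28% of genes changed 2-fold and 84% of those changed 4-fold. Again 100 genes were changed at each fold at once. The changed genes were well counted and had the same simulated mean in both cell types, with no difference between runs. These percentages therefore do not carry over to members that are low in CD8 T cells.

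Klra2 stood apart from the other members. It was at 1.90, 1.74, 1.77 and 2.05 UMIs per 10000 in mononuclear phagocytes and at 1.31, 1.27, 1.05 and 1.34 in neutrophils, without overlap between these types. In thinned cells, 31.9%, 29.5%, 29.4% and 29.7% of mononuclear phagocytes and 19.3%, 18.3%, 17.5% and 21.9% of neutrophils had a Klra2 UMI, against 0.769% to 1.75% of conventional CD4 T cells, whose median depth was 3073.5 UMIs. Plasmacytoid dendritic cells followed with 0.181 to 0.431 UMIs per 10000. Between phagocytes and neutrophils 61.1% of 10803 genes passed, 30.1% being higher in phagocytes and 31% lower, and Klra2 did not (-0.25 ± 0.11, adjusted p = 0.068). The test rescales libraries by TMM, under which the median of all genes was 0.13, and the sign of the fitted value is opposite to that of the levels per 10000, so no direction is given. Without the Csf1rfl/fl tumor of run 1 its adjusted p was 0.0067. Klra17 (Ly49Q), another Klra gene known from plasmacytoid cells, was at 1.20 to 1.56 UMIs per 10000 in plasmacytoid dendritic cells, and Klra10 had 34 UMIs in all kept cells.

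Over 12 cell types, the gene most like each member was found by Pearson's r of log2(UMIs per 10000 + 0.01), leaving out gate genes. Klra9 was most like Klrb1a (r = 0.9496), with Gzma next (0.939), Klra8 most like Khdc1a (0.978), and Klra1 most like Samd3 (0.975). Klra6, the member higher in T cells with NK markers, was most like Cd160 (0.946) and Fgf13, and Klra2 most like Gm49041 and the myeloid receptor gene Sirpb1c (both 0.981). Klra4 had the lowest best match (4930539E08Rik, 0.880). Its values in B cells (22 UMIs in 4 of 50 cells) and dendritic cells enter this match, and both gates hold some of the large cells with little Ptprc described below. The 12 points share libraries and, for T cell types, similar cells, and no test was made.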

How the data were processed

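CD45+ cells of 4 tumors were counted on 2 Chromium runs with hashtag libraries. Per the labels and methods, the authors aligned reads with Cell Ranger 6.0.1 to mm10 and used Seurat to keep hashtag singlets under 5% mitochondrial reads, removing clusters specific to 1 tumor. This was the Lyve1CreCsf1rfl/fl tumor of run 2, and the paper identified the removed cells as lymphocytes high in ribosomal genes. The deposited counts are whole UMIs per gene or hashtag and barcode, not normalized. The deposited corrected values are a score from SCTransform, used only to name the kept cells. No doublet caller was run. T and NK cell gates allowed at most 1 UMI each of myeloid and B cell markers, and T cells with NK markers hold markers of both kinds by their definition. The gates of all other types, neutrophils among them, allowed no UMI of the T cell or NK markers.

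Tumors were assigned by the hashtag with the higher centered log ratio within a run, and the deposited metadata gave each hashtag's genotype. UMIs were summed per tumor and gate and tested with edgeR 4.0.16 (R 4.3.3; filterByExpr, TMM, quasi-likelihood F test, Benjamini-Hochberg over all genes tested, threshold 0.05), with the tumor as a block between cell types. Intervals of shares are Wilson 95%, floors are 3 counts, and both cover counting error only. Shares were compared by a two-sided exact permutation test. Scripts used Python 3.11.15 and scipy 1.17.1, and the fits were tested on simulated data. Runs pair the tumors: same-run deviations from genotype means correlated at 0.17 in NK cells and 0.31 to 0.40 in 5 other types. DESeq2 1.42.0, other size factors, no low-count filter, stricter gates, hashtag margins and leaving out each tumor were tried. Named genes were the members, fixed lists of adaptors, phosphatases, kinases, NK gene complex receptors, class I genes and transcription factors, and the most alike genes. A planned comparison within the NK gate is not reported here. The members and lists were chosen with earlier results of these data known. Total UMIs per tumor were 27686362 to 56715743.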

Additional observations from a re-analysis of the deposited data

Results flagged for a closer look

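Barcodes that the study left out were searched with the same NK gate, and Ly49 UMIs were found there too, in data that no comparison above used. The study kept only hashtag singlets with few mitochondrial reads, so the left-out barcodes can include multiplets, for which the assignment to a tumor by the higher hashtag is uncertain. It also removed clusters specific to the Lyve1CreCsf1rfl/fl tumor of run 2, which the paper identified as lymphocytes high in ribosomal genes. The left-out barcodes, 3958, 5631, 6323 and 9020 by tumor, include the cells of these clusters. A UMI of a member other than Klra2 was found in 83.3% (70 of 84 barcodes, Wilson 95% interval 73.9% to 89.8%) and 74.5% (41 of 55, 61.7% to 84.2%) of such barcodes of the Csf1rfl/fl tumors of runs 1 and 2. The shares were 76.7% (69 of 90, 66.9% to 84.2%) and 84.4% (38 of 45, 71.2% to 92.3%) in the Lyve1CreCsf1rfl/fl tumors. Among left-out barcodes passing the neutrophil gate the shares were 1.33%, 1.69%, 0.565% and 2.28%. The summed level of the 8 members was 14.1, 14.1, 13.1 and 15.1 UMIs per 10000, beside 16.1, 17.9, 13.7 and 15.8 in the kept NK cells.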

How the results depend on the processing

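Of the alternatives for members' fold changes, 578 kept direction and call, 23 turned direction, 2 lost a call and 8 gained one, and the cause was not tested. Counts of genes called under DESeq2 were 6 for genotype in T cells with NK markers, 923 for NK against CD8 T cells, 81 for T cells with NK markers against CD8, 260 for γδ, 337 for the Tcf7 split and 139 for regulatory T cells. With no filter on low counts they were 14 (genotype, NK), 56 (genotype, CD8), 77 (genotype, T cells with NK markers), 517 (T cells with NK markers against CD8) and 23 (interaction), and Klra7 in CD8 T cells (adjusted p = 0.019), Klra4 in T cells with NK markers (0.025) and the interactions of Klra1 (0.036) and Klra7 (0.011) then passed by edgeR. An NK gate with at most 1 T UMI gave 3 for genotype, and stricter gates gave 1 in T cells with NK markers. Thinning moved the Klra7 level in NK cells to 5.03 UMIs per 10000.

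With the run as a replicate block, genotype gave 40 genes in CD8 T cells and 38 in T cells with NK markers, where Klra4 passed and Klra2 turned to 0.013. Without the tumor as a replicate block, the counts were 1187 (NK against CD8), 20 (T cells with NK markers), 405 (γδ), 333 (Tcf7) and 97 (regulatory). The block ended or made no member's call other than those of Klra3, Klra4 and Klra6 given above.

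Leaving out each tumor gave 0 to 24 genes for genotype in NK cells, 0 to 57 in CD8 and 3 to 119 in T cells with NK markers. It gave 1350 to 1654 for NK against CD8, 110 to 316 for T cells with NK markers, 401 to 588 for γδ, 344 to 621 for Tcf7, 340 to 416 for regulatory and 2 to 9 for the interaction. Without the Csf1rfl/fl tumor of run 2 the interaction of Klra1 passed at -3.81 (edgeR, adjusted p = 0.0011). Lone tumors are then assumed to vary like the others. The log2 ranges that crossed 0 were, for genotype in NK cells, -0.66 to 0.18 (Klra1), -0.54 to 0.23 (Klra3), -0.35 to 0.29 (Klra7) and -0.46 to 0.076 (Klra8). In T cells with NK markers they were -0.38 to 0.39 (Klra2), -0.35 to 0.085 (Klra3), -0.33 to 0.58 (Klra5) and -0.19 to 0.51 (Klra6). Between cell types they were -0.41 to 0.56 (Klra6, NK), -0.032 to 0.49 (Klra2, T cells with NK markers), -1.38 to 0.66 (Klra6, γδ) and -1.21 to 0.83 (Klra7, γδ), and for the interaction -0.46 to 2.86 (Klra2) and -4.42 to 1.82 (Klra8). Klra6 in NK against CD8 was -0.19 with stricter gates and -0.20 with an NK gate of 1 UMI, Klra2 there 0.0033, and Klra6 in γδ 0.015 under DESeq2.

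The share of NK cells with a member differed by -8.88 to -3.26 percentage points, and by gene by -3.35 to 0.819 (Klra1), -0.0832 to 0.768 (Klra2), -6.32 to 0.981 (Klra3), -1.004 to 0.0054 (Klra5), -1.16 to 1.05 (Klra6) and -8.49 to 5.22 (Klra8). It was -0.133 for Klra2 with an NK gate of 1 UMI, 0.0818 for Klra5 thinned to 1000 UMIs and 0.185 for Klra6 with a gate of 3 UMIs. Depth limits members with few UMIs: Klra5 had 348 and Klra6 663 in all kept cells.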

Other observations

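Klra4 UMIs also occurred in large cells with little Ptprc, which encodes CD45, a class chosen after its values were seen. In 213 cells with at least 20000 UMIs and under 1 Ptprc UMI per 10000, there were 233 Klra4 UMIs in 89 cells, or 42.0%, 43.2%, 48.1% and 32.6% of such cells by tumor. The same cells held 21 UMIs of Klra2, 10 of Klra7, 4 of Klra1 and 2 or fewer of each other member. Their median depth was 48913 UMIs, on which these shares rest, and Klra4 was at 0.205 UMIs per 10000 in them against 0.336 in the other kept cells. The latter include NK cells, with a mean of 3.99, whereas the means were 0.0087 in neutrophils and 0.0037 in mononuclear phagocytes. Ptprc was at 0.126 UMIs per 10000 against 8.73 in the other kept cells, Tyrobp at 0.416 against 17.3, and Krt8, an epithelial keratin, at 1.49 against 0.0114. The keratin gene Krt18 was at 0.0073, 0, 0.592 and 0.0166 by tumor against 0.0067 in the other kept cells. Vim was at 23.4 against 8.80, and the identity of these large cells was not tested. Of these cells 121 passed the dendritic cell gate and 11 the B cell gate.

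Ungated cells with NK markers and 1 T cell UMI, 304 cells, held the 8 members at a sum of 14.4, 19.0, 13.4 and 13.9 UMIs per 10000, beside 13.7 to 17.9 in the NK gate. A further 939 ungated cells had NK markers with myeloid or B cell UMIs, 519, 151, 143 and 126 by tumor, at a median depth of 11202 UMIs.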
